A study of Mus musculus with 6 samples.

Results

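A set of 10 transcription factor genes that direct myeloid cell fate were followed in mouse stem and progenitor cells given extra HLX, a homeobox transcription factor. They were taken by symbol from the array annotation, and all 10 of 10 were found among the 19938 genes measured, each with 1 probeset that carried a single gene symbol. The cells came from bone marrow of young adult wild-type FVB/nJ mice and were sorted as Lin-Kit+Sca-1+, the marrow fraction that holds blood stem cells and early multipotent progenitors. Of the arrays, 3 had RNA of cells infected with the control lentivirus pCAD-IRES-GFP, and 3 had RNA of cells infected with a lentivirus carrying mouse HLX, written both pCAD-HLX-IRES-GFP and pCAD-IRES-GFP-Hlx in the labels. Every group was cultured for 2 days in IMDM with FBS, mouse IL-3, IL-6 and SCF, with 8 µg/ml polybrene during infection, and was then sorted for GFP, which both vectors encode. Nothing in the labels says whether replicates 1 to 3 came from separate mice or cultures, so the spread behind each p-value may be that of technical repeats.

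Myeloid cells arise from progenitors in which a small set of factors act in combination. Spi1 encodes PU.1, an ETS-family protein needed to open the myeloid programme, and the C/EBP proteins, which bind DNA as bZIP dimers, act beside it. Cebpa is needed to form granulocyte and monocyte progenitors, and Cebpe and Gfi1 drive granulocyte maturation, Gfi1 as a repressor. Irf8, Klf4, Egr2 and Zeb2 are known for their work in monocytes, macrophages and dendritic cells, and Egr2 and Gfi1 are known to repress each other's programme. Below, Spi1, Cebpb and Cebpd are called shared factors, Cebpa, Cebpe and Gfi1 granulocyte factors, and Irf8, Klf4, Egr2 and Zeb2 monocyte factors. Most of these genes act in more than 1 lineage, and the grouping is a convenience.

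Values are log2 expression levels, so a difference of 1 is a doubling. Hlx itself was at 6.99, 7.29 and 7.62 in the control arrays and at 10.75, 9.74 and 10.28 in the HLX arrays (replicates 1, 2 and 3). Every HLX array lay above every control array, as labelled, and at 7.75-fold Hlx itself had an adjusted p from limma of 0.0782. Kit, a gate marker, lay between 9.20 and 9.59 on all 6 arrays, and the gene of Sca-1, Ly6a, had no probeset with a single symbol. The arrays' medians over all probesets were 6.32 to 6.404, and pairwise correlations over genes were 0.980 to 0.987. HLX replicate 3 stood apart over all genes, with a limma array weight of 0.55 against 0.89 to 1.38 for the others and a first principal component score of 25.1 against -18.7 to 9.15. On bulk arrays, a change in the share of cells that express a gene and a change in RNA per cell cannot be told apart.

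No factor passed the test over all genes, in which limma called 0 of 19938 genes (0% of those tested) at its threshold, an adjusted p below 0.05. Before adjustment, at a p under 0.05, 2 of the 10 factors stood higher with HLX, Spi1 and Cebpb, and 0 stood lower. Over all genes that threshold took 958 (4.8%), 2.44% as higher and 2.36% as lower. Control and HLX arrays did not overlap in 2 of the 10 factors, Cebpb with HLX above and Klf4 with HLX below. Over all genes the same was true of 9.19%, with 4.34% above and 4.85% below. Fitted differences were above 0 for 5 factors and below 0 for 5, against 47.5% above 0 over all genes. The median difference of the 10 was -0.017, against -0.0078 for all genes tested.

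Under the grouping chosen above, the differences of the 10 factors fell as follows. All 3 shared factors had differences above 0, with a median of 0.36. All 4 monocyte factors had differences below 0, with a median of -0.19. The granulocyte factors lay close to 0, from -0.041 to 0.027. The order of the 10 differences ran from Spi1 at 0.70 to Zeb2 at -0.27. These are counts over genes chosen with earlier results of the same arrays known, and they carry no test. Some of the signs rested on 1 array: Cebpd was at -0.040 without HLX replicate 3, and Irf8 at 0.0022 without HLX replicate 1.

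Proximal promoter sequence was read for the 7 factors found in the RefSeq promoter table (GRCm38.p6, the C57BL/6J reference, not FVB/nJ). Spi1, Cebpd and Cebpe were not found there. Of the 7, 3 are shown. Cebpb and Klf4 were the factors whose control and HLX arrays did not overlap, in opposite directions, and Irf8 was the monocyte factor whose level was lowest in replicate 1 of both vectors. Each is the 250 bases before the annotated start, 5′ to 3′ on the gene's strand. Capitals mark matches on either strand to TAAT, the core bound by many homeobox proteins, TGACG, the core of the cyclic AMP response element, TTCNNNGAA, the gamma-activated site bound by STAT proteins, or GAGGAA, a core bound by PU.1. The Cebpb window is chr2:167688665-167688914 on the plus strand, that of Klf4 chr4:55532476-55532725 on the minus strand and that of Irf8 chr8:120736108-120736357 on the plus strand.
Cebpb: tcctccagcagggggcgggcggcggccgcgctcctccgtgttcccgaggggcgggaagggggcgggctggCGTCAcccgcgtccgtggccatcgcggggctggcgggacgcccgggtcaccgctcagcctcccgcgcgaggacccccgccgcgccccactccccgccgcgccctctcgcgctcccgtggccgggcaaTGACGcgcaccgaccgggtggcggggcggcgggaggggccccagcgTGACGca
Klf4: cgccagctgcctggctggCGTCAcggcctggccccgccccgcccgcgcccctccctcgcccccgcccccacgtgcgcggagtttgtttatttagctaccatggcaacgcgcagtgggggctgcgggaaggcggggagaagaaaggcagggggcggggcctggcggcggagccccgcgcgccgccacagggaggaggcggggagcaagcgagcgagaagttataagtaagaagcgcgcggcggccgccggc
Irf8: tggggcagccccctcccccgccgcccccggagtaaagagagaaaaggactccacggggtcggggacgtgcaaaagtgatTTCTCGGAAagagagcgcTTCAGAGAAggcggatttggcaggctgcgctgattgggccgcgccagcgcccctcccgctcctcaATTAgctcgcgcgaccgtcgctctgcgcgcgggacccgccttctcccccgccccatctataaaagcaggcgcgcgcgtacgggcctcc

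The Cebpb window held TGACG 3 times, beginning 180, 53 and 7 bases before the start, and the Klf4 window held it once, 232 bases before. Of 32851 windows of that length in the table, 17.8% held TGACG. Some windows of Egr2 and Zeb2, not shown, held TGACG too, and some held GAGGAA. The table has a second Irf8 start, whose window (chr8:120738389-120738638) held none of the 4 motifs. The Irf8 window shown held TTCNNNGAA at 171 and 153 bases before the start and TAAT at 88, where 7.02% and 54.9% of all windows held these letters. GAGGAA was in none of the 3 windows and in 23.3% of all. No matches overlapped another match within these windows. A match describes the letters alone, and no binding was measured here.

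Spi1 had the largest difference of the 10. Its log2 levels were 8.44, 8.77 and 9.43 in control replicates 1 to 3 and 9.19, 9.58 and 9.96 in HLX replicates 1 to 3. Control replicate 3 lay above HLX replicate 1, so the groups overlapped, and the remaining HLX arrays lay above every control. Spi1 was 1.62-fold higher with HLX (log2 difference 0.70, 95% interval from limma 0.035 to 1.36, n = 3 per group). The unadjusted p from limma was 0.0415, the adjusted p 0.9999, and an exact 2-sided permutation test gave p = 0.2, where 0.1 is the smallest that 3 against 3 arrays allow. Its spread within groups was wide, with an SD of 0.50 among controls and 0.39 among HLX arrays, against a median of 0.156 for all genes. In both vectors Spi1 was lowest in replicate 1 and highest in replicate 3. Same-numbered arrays differed by 0.75, 0.81 and 0.53. With a replicate block, its unadjusted p from limma was 0.000947 and its adjusted p 0.656. The labels do not say whether same-numbered arrays are pairs.

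Cebpb, a C/EBP factor that is induced in stress and in cytokine-driven myelopoiesis, did not overlap between vectors. Its levels were 6.69, 6.70 and 6.79 with the control vector and 7.004, 6.93 and 7.32 with HLX. Every HLX array lay above every control array, with HLX replicate 3 well above the rest. Cebpb was 1.28-fold higher (log2 difference 0.36, 95% interval from limma 0.066 to 0.65), with an unadjusted p of 0.0228 and an adjusted p from limma of 0.963. The exact permutation test gave p = 0.1. Without HLX replicate 3 the difference was 0.24, and its unadjusted p was 0.0477 in limma.

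The unadjusted p of this pair changed when 1 array was left out. Such fits have fewer residual degrees of freedom, so a p can rise though the difference hardly moves. Without control replicate 1 or control replicate 2, 0 of the 10 factors had an unadjusted p under 0.05. Spi1 then stood at 0.48 and 0.64, against 0.70 with all arrays. Cebpb was at 0.34 in both fits, against 0.36 with all arrays. Without HLX replicate 2 or HLX replicate 3 only Cebpb remained at that threshold, with Spi1 at 0.70 and 0.51. The largest Spi1 difference among the 6 fits that left out 1 array, 0.97, came without control replicate 3.

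Cebpd, a C/EBP gene induced in granulocyte maturation and by inflammatory signals, was dim. Its levels were 5.72, 5.82 and 5.93 with the control vector and 5.88, 5.69 and 6.27 with HLX, below the median probeset of every array. The groups overlapped, and the single high value was HLX replicate 3. The log2 difference was 0.12 (95% interval -0.25 to 0.50, adjusted p from limma 0.9999), and without HLX replicate 3 it was -0.040. In HLX replicate 3, Spi1, Cebpb, Cebpd and Cebpe each had their highest level of the 6 arrays, and it is the array that stood apart over all genes. With array weights the Spi1 difference was 0.53 (unadjusted p from limma 0.101) and that of Cebpb 0.31 (0.0256).

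**Figure D1:**
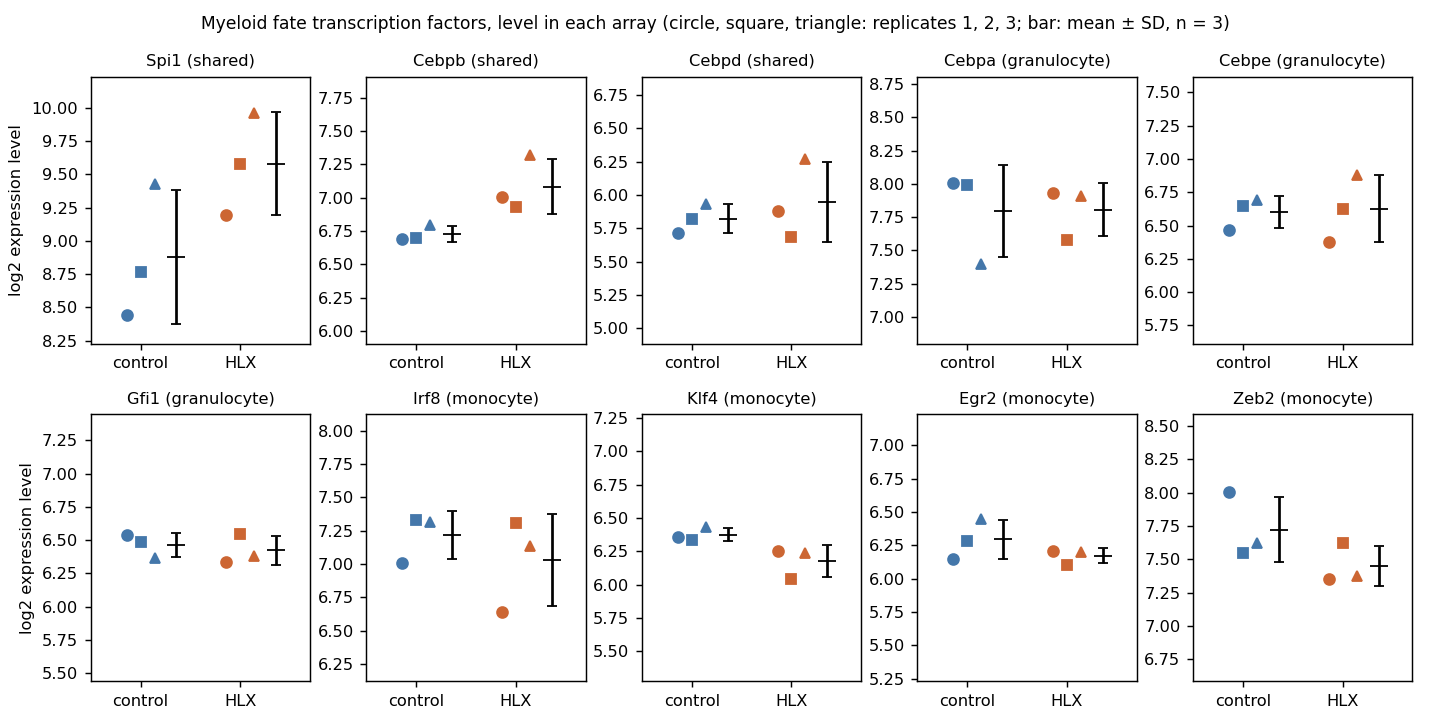
Log2 expression level (vertical axis, each panel spanning 2 log2 units around the gene's mean) of the 10 factors in the control and HLX arrays, with circles, squares and triangles for replicates 1, 2 and 3 and a bar for mean ± SD (n = 3). Cebpb and Klf4 are the panels in which the 3 control and 3 HLX points do not overlap, and Spi1 has the widest range, 1.52 log2 units.

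Among the granulocyte factors no difference exceeded the spread between replicates. Cebpa was at 8.00, 7.99 and 7.40 with the control vector and at 7.93, 7.58 and 7.91 with HLX. A single control array, replicate 3, was the lowest of the 6, and the others lay close together apart from HLX replicate 2. The log2 difference was 0.0072 (95% interval from limma -0.44 to 0.45). Without control replicate 3 it was -0.19.

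Cebpe, whose protein is needed for the secondary granules of neutrophils, was at 6.46, 6.64 and 6.69 in the control arrays and at 6.38, 6.62 and 6.88 in the HLX arrays. In both vectors replicate 1 was lowest and replicate 3 highest. The log2 difference was 0.027 (95% interval -0.31 to 0.37). Gfi1, the zinc finger repressor, was at 6.54, 6.48 and 6.37 with control and at 6.34, 6.55 and 6.38 with HLX. Its groups lay within the same range of 0.21 log2 units, and its log2 difference was -0.041 (95% interval -0.28 to 0.20). Adjusted p from limma was 0.9999 for all 3 granulocyte factors.

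The monocyte factors were each below 0, and none had an unadjusted p under 0.05. Klf4, a zinc finger factor of monocyte differentiation, was at 6.36, 6.33 and 6.43 with the control vector and at 6.26, 6.04 and 6.24 with HLX. Every HLX array lay below every control array, by 0.077 log2 units at the nearest. Klf4 was 1.15-fold lower (log2 difference -0.20, 95% interval from limma -0.43 to 0.038), with an unadjusted p of 0.0881 and an exact permutation p of 0.1. Without HLX replicate 2 the difference was -0.13 (unadjusted p from limma 0.249). It was a dim gene, with 4 of its 6 values below the median probeset of their array.

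Zeb2, a zinc finger repressor used by monocytes and dendritic cells, was at 8.00, 7.54 and 7.62 with control and at 7.35, 7.63 and 7.37 with HLX. Control replicate 1 was the highest, and HLX replicate 2 lay within the control range. The log2 difference was -0.27 (95% interval -0.62 to 0.077, unadjusted p from limma 0.109), and without control replicate 1 it was -0.13. That array also held the highest mean level of 7 mast cell and basophil markers, 6.13, against 5.33 to 5.65 in the other 5 arrays. Its Cpa3, the mast cell carboxypeptidase, was at 7.47 against 4.99 and 5.10 in the other control arrays. Mcpt8, Fcer1a, Gata2 and Hdc were also highest in that array. Prss34 was at its lowest there, 5.56, and Ms4a2 was higher in HLX replicates 1 and 3. Of the 7 markers 6, Cpa3 among them, were at or below the median of all probesets. The part of such cells in the Zeb2 value was not tested.

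Irf8, the interferon regulatory factor that favours monocytes and dendritic cells over granulocytes, was at 7.01, 7.33 and 7.32 with control and at 6.64, 7.31 and 7.13 with HLX. Replicate 1 was lowest in both vectors, and the groups overlapped. The log2 difference was -0.19 (95% interval -0.63 to 0.25, unadjusted p from limma 0.338), and without HLX replicate 1 it was 0.0022. The arrays numbered 1 also had the highest Irf7, an interferon-induced relative named here after its values were seen, at 7.49 with control and 8.17 with HLX against 5.85 to 6.37 in the other 4. Without both arrays numbered 1 the Irf8 difference was -0.10. The part of an interferon response in the Irf8 value was not tested.

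Egr2, a zinc finger factor of macrophage differentiation, was at 6.15, 6.28 and 6.45 with the control vector and at 6.21, 6.11 and 6.20 with HLX. Control replicates 2 and 3 lay above all HLX arrays and control replicate 1 among them. The log2 difference was -0.12 (95% interval -0.38 to 0.13, unadjusted p from limma 0.288). It was -0.046 without control replicate 3 and -0.20 without control replicate 1. It was dim, below the median probeset in 5 of 6 arrays. Adjusted p from limma was 0.9999 for each of the 4 monocyte factors.

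**Figure D2:**
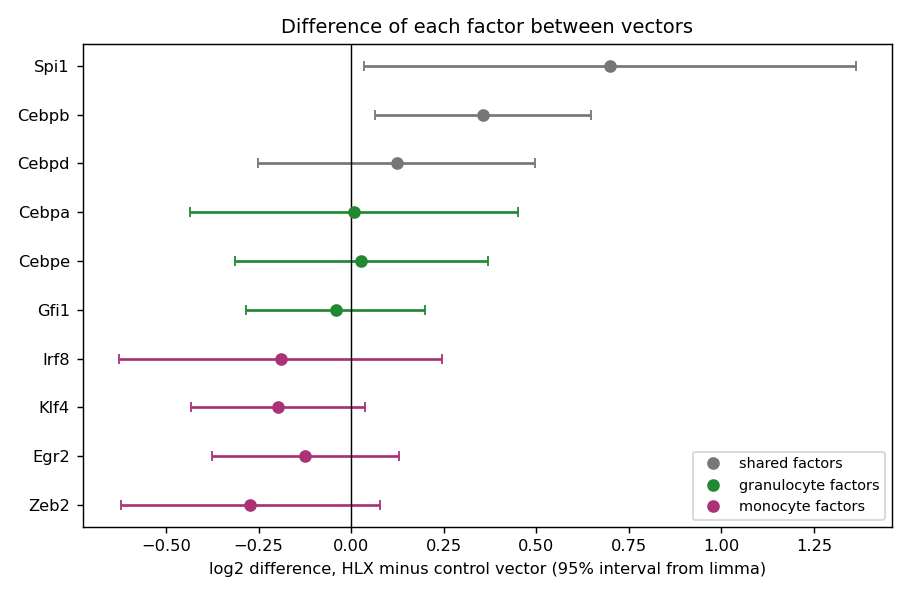
Log2 difference of each factor, HLX minus control vector (horizontal axis), with the 95% interval from limma (n = 3 per group) and colours for shared, granulocyte and monocyte factors. The intervals of Spi1 and Cebpb lie above 0, and those of the other 8 factors include 0, with all 4 monocyte factors centred between -0.27 and -0.12.

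To set the branches against each other, each gene was centred on its mean over the 6 arrays and the centred values were averaged over the factors of a branch. The monocyte factors averaged 0.076, 0.067 and 0.15 in control replicates 1 to 3 and -0.19, -0.036 and -0.068 in HLX replicates 1 to 3. All 3 control arrays lay above all 3 HLX arrays. The granulocyte factors averaged 0.050, 0.086 and -0.13 with control and -0.071, -0.037 and 0.10 with HLX, and these overlapped widely.

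The monocyte mean minus the granulocyte mean was 0.097 ± 0.16 (SD, n = 3) with control and -0.097 ± 0.089 (SD, n = 3) with HLX, a difference of -0.19. By array it was 0.026, -0.019 and 0.28 with control and -0.12, 0.0011 and -0.17 with HLX, so HLX replicate 2 lay above control replicate 2 and the groups overlapped. Without control replicate 3 the difference was -0.10. Placing Spi1 with the monocyte factors and Cebpd with the granulocyte factors changed it to -0.046. The size of the branch difference thus varied with where Spi1 and Cebpd were counted and with control replicate 3. It carries no test, because the factors were chosen with results known.

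The shared factors averaged -0.39, -0.24 and 0.046 with control and 0.019, 0.058 and 0.51 with HLX. Control replicate 3 lay between HLX replicates 1 and 2. Spi1 minus Cebpa, the pair whose balance is known to steer progenitors between monocytes and granulocytes, was -0.99, -0.65 and 0.60 with control and -0.17, 0.58 and 0.63 with HLX on the same centred scale. Its group means differed by 0.69, and control replicate 3 lay among the HLX arrays.

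**Figure D3:**
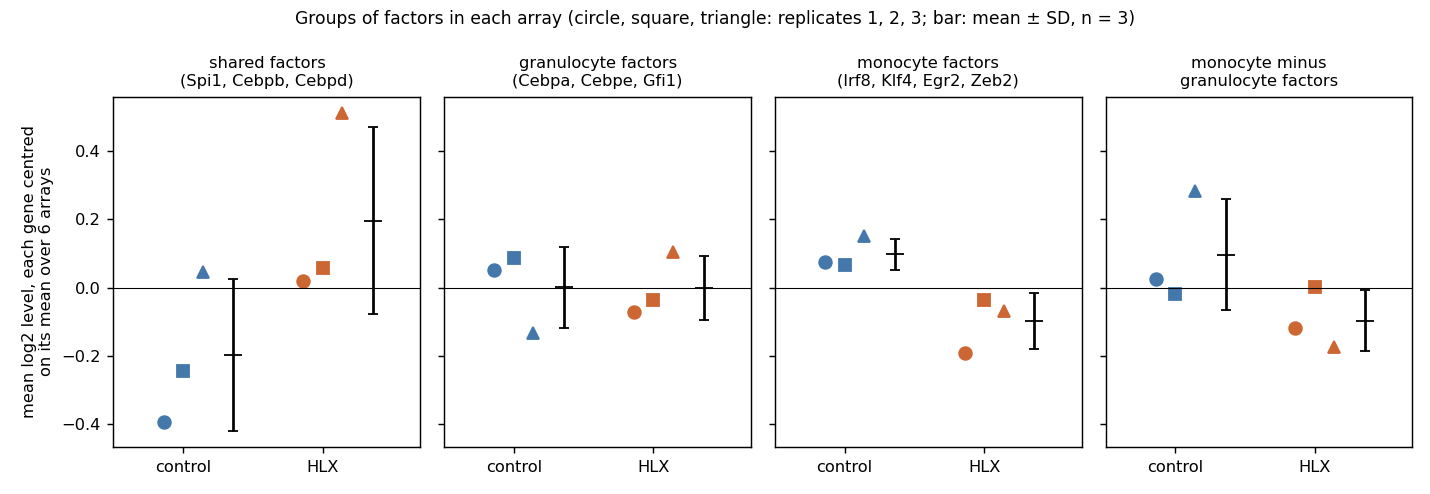
Mean log2 level of the shared, granulocyte and monocyte factors, each gene centred on its mean over 6 arrays, and the monocyte minus granulocyte difference (vertical axis), by vector, with circles, squares and triangles for replicates 1, 2 and 3 and a bar for mean ± SD (n = 3). Control and HLX points separate for the monocyte factors, from 0.067 to 0.15 against -0.19 to -0.036, and overlap in the other panels.

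In the IRF family the relatives lay on the other side of 0 from Irf8. Of 7 measured IRF genes other than Irf8, all 7 had differences above 0, with a median of 0.25, while Irf8 was at -0.19. Over all genes 47.5% were above 0. Irf1, an activator induced by interferon gamma, was at 7.42, 6.77 and 7.35 with control and at 7.75, 7.57 and 7.55 with HLX (log2 difference 0.45, unadjusted p from limma 0.0415). Irf4, a relative of Irf8 used by lymphoid and dendritic cells, was at 6.18, 6.95 and 7.17 with control and between 7.22 and 7.27 in all HLX arrays (0.48, unadjusted p 0.0806). Irf2 was at 0.25. Irf7 and Irf9 varied widely, with 95% intervals from limma of -1.22 to 1.76 and -0.58 to 0.81. In 2 of the 7 the groups did not overlap, Irf1 and Irf4, both with HLX above, as in 4.34% of all genes. No test of Irf8 against its relatives was made.

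Partners and antagonists of Gfi1 were mostly above 0, 10 of 14 measured genes against 47.5% of all genes, with a median of 0.11. At an unadjusted p under 0.05, 2 stood higher and 1 lower, against 2.44% and 2.36% of all genes. Myb, a factor of proliferating progenitors, was at 10.12, 10.13 and 10.22 with control and at 9.58, 9.66 and 9.60 with HLX, a clear gap with narrow groups (log2 difference -0.54, adjusted p from limma 0.662). Id1, an inhibitor of helix-loop-helix factors, was at 6.95, 7.10 and 7.50 with control and at 7.40, 8.21 and 7.79 with HLX (0.62, unadjusted p from limma 0.0281). Gata1, the erythroid factor that PU.1 opposes, was at 0.27 (unadjusted p 0.0395).

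The relatives of Egr2, Klf4 and Zeb2 centred on 0, with 7 of 15 above, against 47.5% of all genes, and a median of -0.0039. Zeb1, the paralogue of Zeb2, was at 8.56, 8.71 and 8.46 with control and at 8.92, 9.01 and 8.71 with HLX. Its HLX arrays lay just above the controls (log2 difference 0.30, unadjusted p from limma 0.0359), in the direction opposite to Zeb2, and the difference between the 2 genes was not tested. Nr4a2, an orphan nuclear receptor of the immediate early response, was at 6.04, 6.24 and 6.66 with control and at 5.72, 5.75 and 5.88 with HLX (-0.53, unadjusted p 0.0133). Nr4a3, a nuclear receptor of the same family, was at 0.21.

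Neither the C/EBP relatives nor the ETS and RUNX partners had a gene at an unadjusted p under 0.05. Of 19 measured bZIP genes 9 were above 0 (median -0.0056), and those with the smallest p were Nfil3 at -0.54, Ddit3 at -0.20 and Jund at -0.14. Nfil3, a bZIP repressor, had a high HLX array, replicate 1 at 8.73, above every control. Of 13 ETS and RUNX partners 10 were above 0 (median 0.039). Over all genes 47.5% were above 0. Erg, an ETS factor of stem cells, was at -0.23 (unadjusted p from limma 0.0781). Spib, the nearest relative of Spi1, was at 0.28 (unadjusted p from limma 0.0811). These were the 2 of the 13 in which the groups did not overlap, against 9.19% of all genes. Runx3 was at 0.32.

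Granule and neutrophil genes, many of them known targets of the granulocyte factors, held a few low values among many dim genes. Of the 22 measured, 12 were below 0, with a median of -0.050. At an unadjusted p under 0.05 there were 3 lower and 0 higher, against 2.36% and 2.44% of all genes. The 3 were the progenitor gene Ms4a3 (log2 difference -1.76) and the primary granule genes Mpo (-1.16) and Ctsg (-1.12), with adjusted p from limma of 0.901, 0.932 and 0.283. The primary granule genes Elane, at 0.056, and Prtn3, at -0.20, were not among them. Myeloperoxidase, Mpo, was at 8.46, 9.41 and 9.32 with control and at 7.37, 8.70 and 7.64 with HLX, so that HLX replicate 2 lay within the control range. For Ctsg, at 6.60, 6.68 and 6.28 against 5.47, 5.28 and 5.44, the groups did not overlap. The same held for Ms4a3, at 7.56, 8.59 and 8.65 against 5.70, 7.40 and 6.44. With the dim genes Ltf, Camp and Ly6g, 5 of the 22 had no overlap, all with HLX below, against 4.85% of all genes. By mean over the 6 arrays, 16 of the 22 were at or below the median of all probesets, 6.37. Among them were Ctsg, one of the 3, and the secondary granule genes Ltf, Camp and Ngp. Ctsg lay above that median in control replicates 1 and 2 and below it in every HLX array.

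Most monocyte and macrophage genes had differences above 0, while the monocyte factors were each below 0. Differences were above 0 for 15 of 22 measured genes (median 0.10), against 47.5% of all genes. At an unadjusted p under 0.05 there were 4 higher and 1 lower, against 2.44% and 2.36% of all genes. Itgam, an integrin of myeloid cells, was at 6.49, 5.72 and 5.99 with control and at 7.24, 6.91 and 6.72 with HLX (log2 difference 0.89, adjusted p from limma 0.901). Lyz2, a lysozyme gene, was at 0.70 and Cd68, a lysosomal protein of macrophages, at 0.51 (adjusted p 0.824 and 0.932). The 2 others were taken after their values were seen.

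One of these was Csf1r, the receptor for macrophage colony-stimulating factor and a textbook target of PU.1. It was at 6.27, 6.48 and 6.37 with control and at 6.49, 7.80 and 8.92 with HLX (1.36, unadjusted p from limma 0.0351). HLX replicate 1 lay just above the controls, and HLX replicate 3, the array that stood apart over all genes, far above. Spi1 was highest in HLX replicate 3 too. Control replicate 3 had more Spi1 than HLX replicate 1 (9.43 against 9.19) and less Csf1r (6.37 against 6.49). The part of Spi1 in the Csf1r values was not tested. The other was Mpeg1, a macrophage perforin, lower at -0.58 (unadjusted p 0.0193). Ms4a6c, also named after its values were seen, had the lowest difference of the list, -1.21 (unadjusted p from limma 0.0930).

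**Figure D4:**
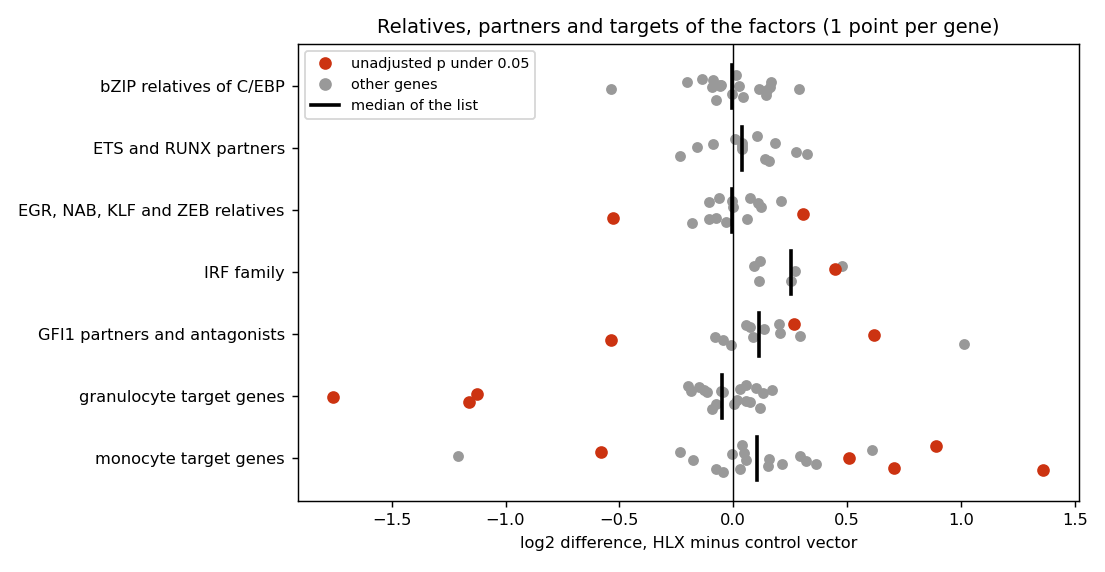
Log2 difference, HLX minus control vector (horizontal axis), of each measured gene in 7 lists of relatives, partners and targets of the factors, with 1 point per gene (vertical scatter within a list has no meaning), red points for an unadjusted p under 0.05 and a black bar for the median. All 7 IRF relatives lie above 0, and the red points lie below 0 among granulocyte targets (3 genes) and mostly above 0 among monocyte targets (4 of 5).

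Markers of other lineages gave these values beside the factors. The mean log2 level of 22 monocyte targets was 7.08 to 7.23 with control and 7.25 to 7.39 with HLX. That of 22 granulocyte targets was 5.79 to 5.98 with control and 5.598 to 5.77 with HLX. Thus the ranges did not overlap in either list, with HLX above in the former and below in the latter. The gaps were small, from 7.231 to 7.245 for the monocyte targets and from 5.770 to 5.790 for the granulocyte targets. Among the granulocyte targets the median difference was -0.050, while Ms4a3, Mpo and Ctsg were at -1.76, -1.16 and -1.12. These list means carry no test. The 5 measured B cell markers, whose lineage also uses Spi1 and Irf8, averaged 6.12 to 6.36 with control and 5.68 to 6.15 with HLX, and all 5 were below 0. The 9 dendritic cell markers, whose lineage uses Irf8, Spi1 and Zeb2, averaged 7.66 to 7.84 and 7.72 to 7.89. Their members went both ways, 5 above 0 and 4 below, from Itgax at 1.19 to Flt3 at -0.68. At an unadjusted p from limma under 0.05, 2 of them were lower, Flt3 and Siglech (-0.32), and 0 higher, against 2.36% and 2.44% of all genes. Averages for the 5 erythroid markers were 7.20 to 7.27 and 7.17 to 7.26, for the 9 stromal and endothelial markers 5.998 to 6.15 and 5.99 to 6.12, and for the 7 T and NK cell markers 5.31 to 5.38 and 5.24 to 5.41.

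These lists were not uniformly dim. Of the 5 B cell markers 3 were above the median of all probesets, Cd79b, Vpreb1 and Pax5, while Cd79a and Ebf1 were not. Of the 7 T and NK cell markers only Cd8a was above it, and of the 9 stromal and endothelial markers 3 were, among them Pecam1, with Cdh5 at or below it. Among the 22 monocyte targets 15 were above it, with Cd68 and Csf1r among them and Adgre1 not. Of 6 measured stem and progenitor markers 5 were below 0, averaging 8.41 to 8.56 with control and 8.24 to 8.44 with HLX. Flt3, a receptor of multipotent and lymphoid progenitors, was the lowest of them at -0.68 (adjusted p from limma 0.901). The part of shifts between cell types in the differences of the factors was not tested.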

How the data were processed

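Expression was measured on 6 Affymetrix arrays, 3 per vector, from 3 ng RNA of 5000 to 10000 sorted cells amplified with the NuGEN Ovation Pico system, per the labels' protocols. The deposited values are log2 levels per probeset, made by the authors with Affymetrix Power Tools by RMA, as the submitters' processing notes record. RMA in general removes differences common to an array and compresses weak signals. That they are log2 was judged from their range, per array. For the probesets' design, the genome build was not given in the sources used here.

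Of 35556 probesets, 21789 had 1 gene symbol, 1621 several and 12146 none in the platform annotation. The brightest 1-symbol probeset was kept per gene, and gene identifiers of all 10 factors matched RefSeq (GRCm38.p6). HLX was compared with control in limma 3.58.1 (R 4.3.3; lmFit, eBayes) across all 19938 genes, 2-sided, with Benjamini-Hochberg adjustment at 0.05 and 4 residual degrees of freedom. Differences are HLX minus control. On simulated data of these 19938 genes with 200 changed genes, this fit recovered 30.6% of 1.5-fold, 69.6% of 2-fold, 95.6% of 4-fold and 98.6% of 8-fold changes, and 4.42% of calls were false. The simulated noise was normal and independent between genes, so these rates need not hold for the real arrays. On the real arrays Hlx, at 7.75-fold, was not called (adjusted p from limma 0.0782). The number of arrays limits the precision. A list is described by counts and its median, and a branch by centred means, with no test. From each list of relatives, partners and targets the 3 genes with the smallest p are named. The members, lists and alternatives were chosen with earlier results of these data known. Alternatives were other normalizations, a filter on dim probesets, averaged probesets, another variance prior, array weights, a replicate block, omitted arrays and other branch membership. Same-numbered arrays were checked for pairing: their deviations from group means correlated at 0.20, 0.0085 and 0.14 for replicates 1, 2 and 3. Differently numbered arrays correlated at -0.23 to 0.11. The main fit did not take the numbers as pairs, but this check does not exclude a pairing, and the replicate block was run as an alternative.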

Additional observations from a re-analysis of the deposited data

How the results depend on the processing

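Spi1, Cebpb, Klf4, Egr2 and Zeb2 kept their direction in every alternative run, and no factor passed an adjusted p under 0.05 in any. Cebpe turned to -0.061 with array weights and Gfi1 to 0.041 without both arrays numbered 1. With 1 array left out, Spi1 ranged from 0.48 to 0.97, Cebpb from 0.24 to 0.44, Klf4 from -0.24 to -0.13, Egr2 from -0.20 to -0.046 and Zeb2 from -0.36 to -0.13. Cebpa then ranged from -0.19 to 0.12, Cebpd from -0.040 to 0.25, Cebpe from -0.10 to 0.15, Gfi1 from -0.10 to 0.0022 and Irf8 from -0.33 to 0.0022. The factors at an unadjusted p under 0.05 numbered 2 and fell to 1 after repeated quantile normalization, cyclic loess, array weights or omission of both arrays numbered 1, and ranged from 0 to 2 with 1 array left out; the cause was not tested. Over all genes limma called 0, and 1 with a trended and robust variance prior (958 at an unadjusted p under 0.05 in the former, 923 in the latter). The monocyte minus granulocyte difference of -0.19 ranged from -0.25 to -0.10 with 1 array left out and was -0.046 with Spi1 counted as a monocyte and Cebpd as a granulocyte factor. With the replicate block, Spi1 had an unadjusted p from limma of 0.000947 (adjusted p 0.656) and Cebpb 0.0193 (adjusted p 0.765), the count at an unadjusted p under 0.05 stayed at 2, and the block changed no call. Centring the arrays on their medians moved the share of higher genes among those at an unadjusted p under 0.05 from 50.8% to 61.9%, with every factor's direction kept. Cebpd, Klf4 and Egr2 lay below the median of all probesets and were not tested under the filter on dim probesets.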
